A study of Drosophila melanogaster with 2 samples.

Results

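The DIP and dpr genes of *Drosophila melanogaster* encode cell surface proteins with immunoglobulin domains, and the peaks of the homeodomain factor Bsh were followed here across 30 of them, 9 DIP and 21 dpr genes, out of 13945 protein-coding genes on the 6 chromosomes and arms used. Positions are on assembly dm6. The members were a list of gene names, matched by symbol to the gene models of Ensembl release 115. A peak was assigned to a gene where its summit, the base of highest signal, lay in the gene span or within 2 kb of it, and this stretch is called the window. Chromatin immunoprecipitation followed by sequencing (ChIP-seq) had been done on whole embryos aged 10 to 12 h from a transgenic line, strain bsh-GFP, in which Bsh carries green fluorescent protein at its C-terminal end, with an antibody against GFP. The data are 2 biological replicates of 1 group, so there was no other condition to compare. Chromatin was sheared by sonication, and no control library was analysed here. The lists do not give read depth. Replicate 1, replicate 2 and the pooled replicates each had a list of 30000 peaks. A further set of 7927 peaks, called the IDR set, had passed a threshold on the irreproducible discovery rate, which scores how well the rank of a peak repeats from one replicate to the next. Chromatin of all cell types of the embryo was mixed, so binding in a few neurons and no binding cannot be told apart where a peak is missing.

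DIP proteins on one neuron bind Dpr proteins on another, and each DIP pairs with a small group of Dprs, which some DIPs share. Such pairs act in the choice of synaptic partners, in the survival of some neurons and in the layering of the optic lobe and the neuromuscular system. Bsh is known from the optic lobe, where it specifies the fate of lamina and medulla neurons and where, with the LIM homeodomain factor Apterous, it acts upstream of DIP-beta in lamina L4 neurons. Homeodomain proteins of this kind commonly bind DNA with a TAAT core.

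The DNA at the summits that the results turn on is given first. The 101 bases centred on each summit were read from the RefSeq genome of release 6 (dm6), on the + strand from 5′ to 3′, and capitals mark each TAAT or its reverse complement ATTA. The first 4 lines show the strongest peak of DIP-alpha, dpr14, dpr19 and dpr20. The next 4 show the other summits, found in both replicates, that hold the longer site TAATTG on either strand, and the last shows the stronger dpr8 peak, which holds no TAAT.
DIP-alpha, strongest (chrX:3546284-3546384): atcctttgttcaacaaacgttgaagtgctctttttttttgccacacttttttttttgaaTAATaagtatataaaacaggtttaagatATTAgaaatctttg
dpr14, strongest (chrX:7908655-7908755): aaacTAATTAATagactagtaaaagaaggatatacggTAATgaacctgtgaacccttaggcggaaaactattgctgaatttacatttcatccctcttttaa
dpr19, strongest (chr2L:10375851-10375951): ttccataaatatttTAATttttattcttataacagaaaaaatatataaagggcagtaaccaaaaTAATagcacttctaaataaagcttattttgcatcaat
dpr20, strongest (chr3L:857747-857847): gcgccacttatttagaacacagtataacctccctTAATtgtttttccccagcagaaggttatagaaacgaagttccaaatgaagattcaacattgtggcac
DIP-alpha, next strongest (chrX:3558831-3558931): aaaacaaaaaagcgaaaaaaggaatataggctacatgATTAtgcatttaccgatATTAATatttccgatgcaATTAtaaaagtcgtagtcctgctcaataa
DIP-alpha, weaker intron (chrX:3555600-3555700): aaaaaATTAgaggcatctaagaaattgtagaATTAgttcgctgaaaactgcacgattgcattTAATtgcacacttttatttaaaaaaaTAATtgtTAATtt
dpr14, outer (chrX:7909657-7909757): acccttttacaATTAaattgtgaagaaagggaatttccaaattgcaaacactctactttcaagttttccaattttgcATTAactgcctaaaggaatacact
dpr18, intron (chrX:16068365-16068465): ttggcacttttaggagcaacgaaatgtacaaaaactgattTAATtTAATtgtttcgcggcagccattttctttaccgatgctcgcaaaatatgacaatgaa
dpr8, stronger (chrX:14332394-14332494): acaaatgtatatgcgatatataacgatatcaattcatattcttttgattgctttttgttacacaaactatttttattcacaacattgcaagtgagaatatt

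The sequences differ in what they hold. The summit of dpr14 has the run TAATTAAT near its left end, and that of DIP-alpha has 2 separate cores and runs of T. The weaker DIP-alpha intron summit holds 5 cores, of which 2 form TAATTG. The strongest dpr19 summit is the poorest in G and C among the members' peaks found in both replicates, with 20.8% GC. The dpr20 summit carries its single core as TAATTG.

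Of the 30 genes, 6 had an IDR summit in the window, where 41.8% of all protein-coding genes did. They were DIP-alpha, dpr6, dpr8, dpr14, dpr19 and dpr20. With a pooled summit counted there were 9 members, against 62.5% of all genes, and DIP-iota, dpr3 and dpr18 joined. Replicate 1 had a summit in 8 windows (all genes, 65.5%) and replicate 2 in 10 (all genes, 65.6%), with DIP-iota and dpr10 in replicate 2 alone. A peak shared by both replicates, where intervals overlapped by 1 bp or more, lay in 8 windows, against 59.7% of all genes. No summit of any list lay in the windows of 20 members, where 30.3% of all genes had none. In each of these lists the share of members with a peak was smaller than that of all genes, and no chance test was made because the list was drawn up with results of these data known.

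The members are long genes. Their spans had a median of 27273.5 bp, and those of all protein-coding genes 2166 bp, and longer windows held an IDR summit more often. Among the 739 genes whose window was at least as long as the members' median, 66.7% had an IDR summit, against 3 of the 15 members of that length, DIP-alpha, dpr6 and dpr8. A peak in both replicates lay in 75.6% of those long windows and in 4 of the 15 members, which add dpr3. No summit of any list lay in 20.0% of the long windows and in 10 of the 15 members. Of the 83 genes that span 100 kb or more, 20.5% had no summit within the span, as did dpr6 and dpr21 among the 3 members of that size.

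**Figure D1:**
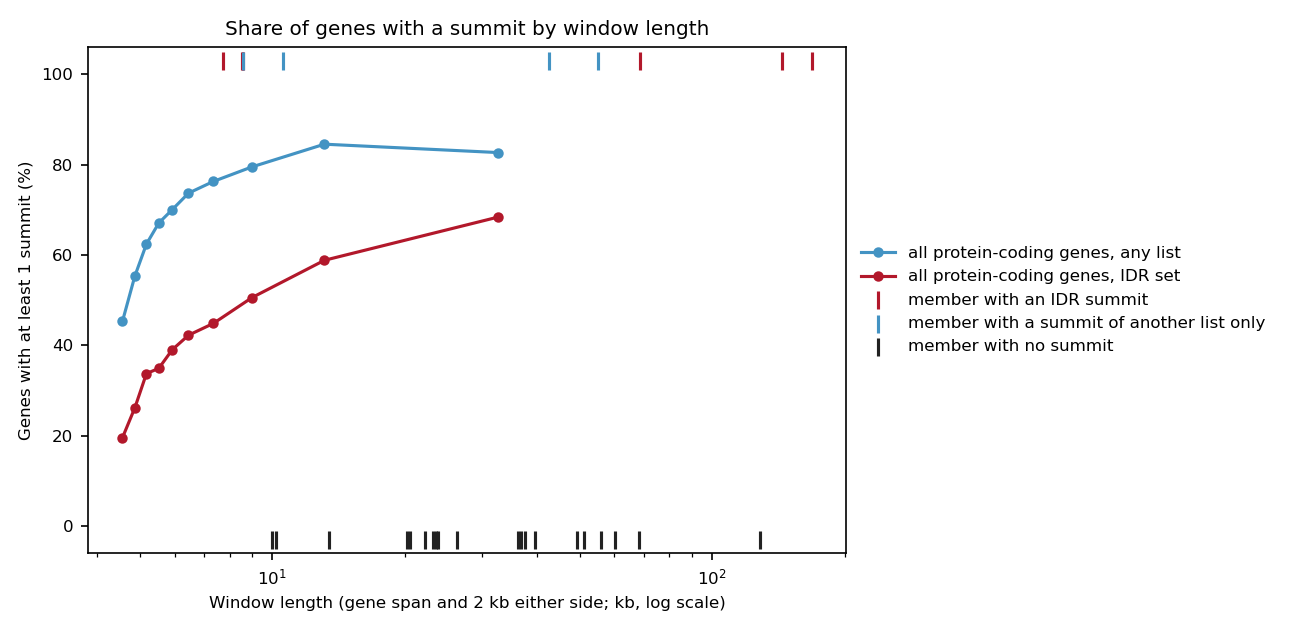
Share of genes with at least 1 summit (y axis, %) against window length (x axis, kb, log scale), for all protein-coding genes in 10 bins of nearly equal size drawn at their median length, with a summit of any list in blue and an IDR summit in red. Ticks at the top are members with an IDR summit (red) or a summit of another list only (blue), and black ticks at the bottom are the 20 members with none, which lie between 9968 and 128513 bp.

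Per length, the members' windows together covered 1279952 bp and held 12 IDR summits, 0.938 per 100 kb (exact Poisson 95% interval 0.484 to 1.64). The windows of all protein-coding genes held 6.56 and the 6 chromosomes and arms 5.92 per 100 kb. For pooled summits the members had 33, or 2.58 per 100 kb, where all windows had 24.1. DIP-alpha alone held 16 of the 33 in 68405 bp, 23.4 per 100 kb, close to the level of all genes. Without it the other members had 8 IDR summits, 0.660 per 100 kb, and 17 pooled summits, 1.40 per 100 kb. Intervals here treat summits as independent and cover counting error only, not the spread between embryos.

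**Figure D2:**
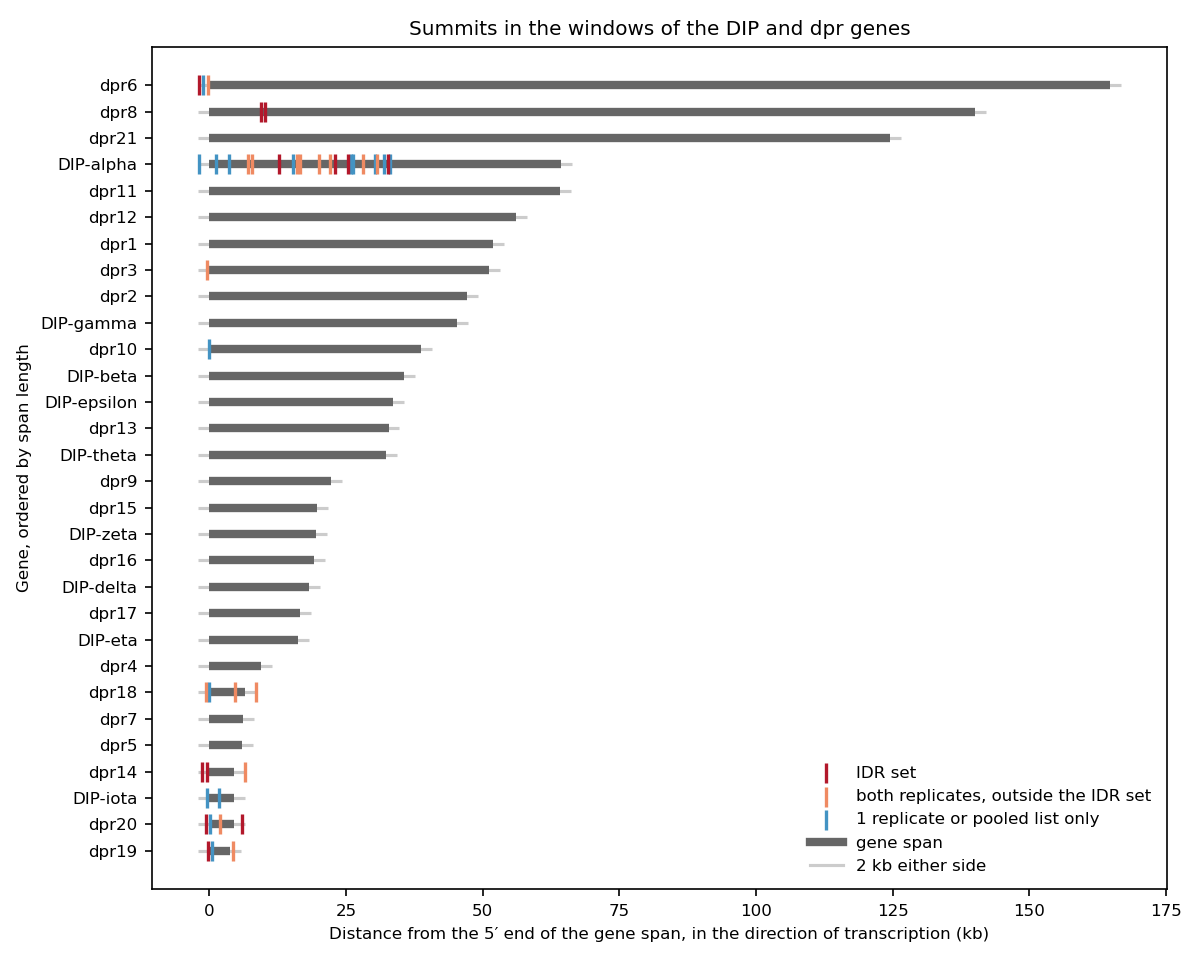
The 30 genes ordered by span length, each drawn from its 5′ end in the direction of transcription (x axis, kb), with the span as a thick bar and 2 kb either side as a thin line. Vertical marks are summits in the IDR set (dark red), in both replicates outside it (orange) or in 1 replicate or the pooled list only (blue), and 21 of the 44 marks lie in DIP-alpha.

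Overlapping peaks of the pooled and replicate lists were merged into 44 loci, of which 12 were in the IDR set and 28 were in both replicates. Another 12 were in replicate 2 only, 3 in replicate 1 only and 1 in the pooled list only. Summits lay in an intron at 25 loci, in a promoter (within 500 bp of any annotated transcription start site, TSS) at 16, in intergenic sequence at 2 and in a 3′ UTR at 1. By class, DIP-alpha had 18 intronic and 3 promoter loci, the other members 7 intronic and 13 promoter loci. Many of the promoters belong to neighbours. Of the 12 IDR loci, 4 had the member's own TSS as their nearest protein-coding TSS and 8 had that of another gene. Classes and nearest genes were not counted over all peaks, so neither can be called particular to these members.

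**Figure D3:**
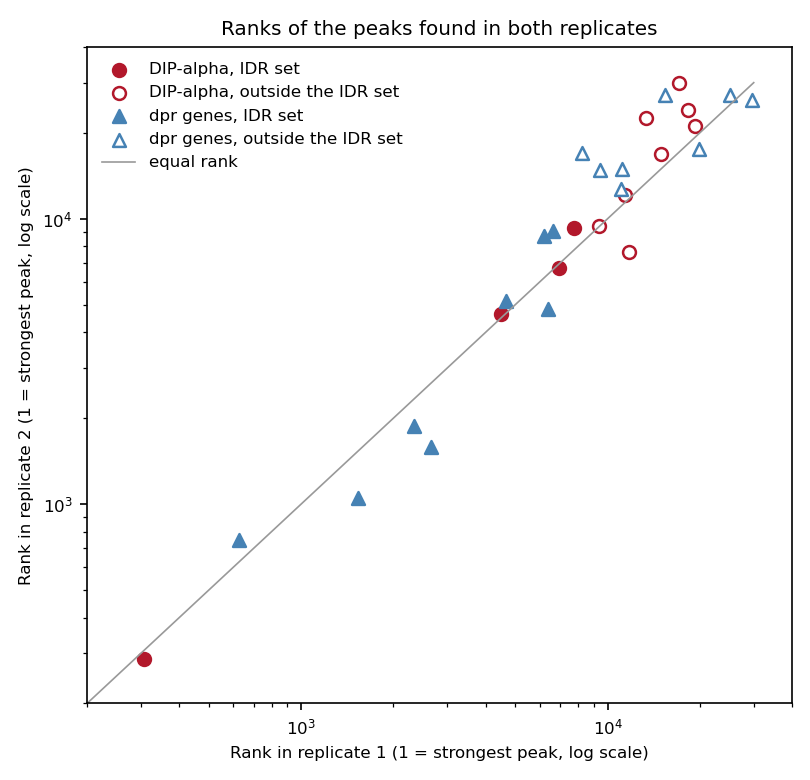
Rank of each of the 28 loci found in both replicates, by signal value in replicate 1 (x axis) and replicate 2 (y axis), on log scales where 1 is the strongest peak. Circles are DIP-alpha and triangles dpr genes, filled where the locus is in the IDR set, and the line marks equal rank. The filled symbols reach rank 9281 in the worse replicate, and the open ones start at 9445.

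Loci of these genes found in both replicates stood in a similar order in the 2 lists, though the ranks of some weaker ones differed. Over the 28 loci in both lists, 12 of them in DIP-alpha, the Spearman correlation of the ranks was 0.927, and over the 21936 pooled peaks with a peak in both replicates it was 0.864. These are descriptions across loci that share libraries and a control file. The similarity is partly built in, because the 12 IDR loci among the 28 had been selected for ranks that repeat between these replicates. In both sets, peaks missing from a replicate are left out, and the fixed length of the lists limits how far weak ranks can differ. The values therefore do not show how well weak peaks repeat. The larger rank was a median 1.22 times the smaller one (1.01 to 2.07) at the members' loci and 1.24 times at all such peaks. At 19 of the 28 loci (67.9%) the peak stood higher in replicate 1, and so did 51.1% of all such peaks.

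DIP-alpha (FBgn0052791, X, 3507245 to 3571649, − strand) is the receptor of Dpr6 and Dpr10 and is known from the wiring of medulla and motor neurons. It had 21 of the 44 loci, with 4 IDR, 16 pooled, 16 replicate 1 and 18 replicate 2 summits in its window. The strongest peak (X, 3546121 to 3546515, summit 3546334) ranked 306 in replicate 1, 287 in replicate 2 and 298 in the pooled list, with a signal value of 1711, the score of the authors' peak caller. It lay in intron 2 of 10, 25315 bp into the gene from its 5′ end and 15669 bp from the nearest TSS of DIP-alpha. It counted as a promoter peak because the TSS of the non-coding gene lncRNA:CR34335 was 224 bp away, so it cannot be assigned to DIP-alpha by position.

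The other IDR peaks of DIP-alpha were weaker. The next (X, 3558785 to 3559007) ranked 4480 in replicate 1 and 4625 in replicate 2, with a pooled signal value of 278, in intron 2. That intron overlaps ppk8, a gene on the opposite strand for a channel subunit of the pickpocket family, whose TSS was 1069 bp away. The peak in intron 3 (X, 3538891 to 3539118) ranked 6928 and 6729 (signal value 176). The last (X, 3548685 to 3548854), again in intron 2, ranked 7769 and 9281 (signal value 156). Across these 4 peaks both replicates gave the same order, and their positions lay between 12768 and 32692 bp from the 5′ end.

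Weaker DIP-alpha peaks filled the space around these. Outside the IDR set, 8 loci were found in both replicates, with ranks in the worse replicate from 9445 to 29957. The strongest of them by the pooled list (X, 3551348 to 3551723, intron 2) ranked 11728 in replicate 1 and 7639 in replicate 2, with a pooled signal value of 138. Of the other 9 loci, 3 were in replicate 1 only and 6 in replicate 2 only. A locus 1227 bp from the 5′ end (X, 3570234 to 3570609, intron 1) ranked 13502 in replicate 2 and was absent from replicate 1. None of the 4 lists had a summit within 500 bp of either TSS of DIP-alpha, and none had one in the 3′ stretch from 33097 bp to the end of the gene, where most of its exons lie. The outermost locus, at the 5′ edge of the window, was 7 bp from the TSS of the neighbour CG2875.

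**Figure D4:**
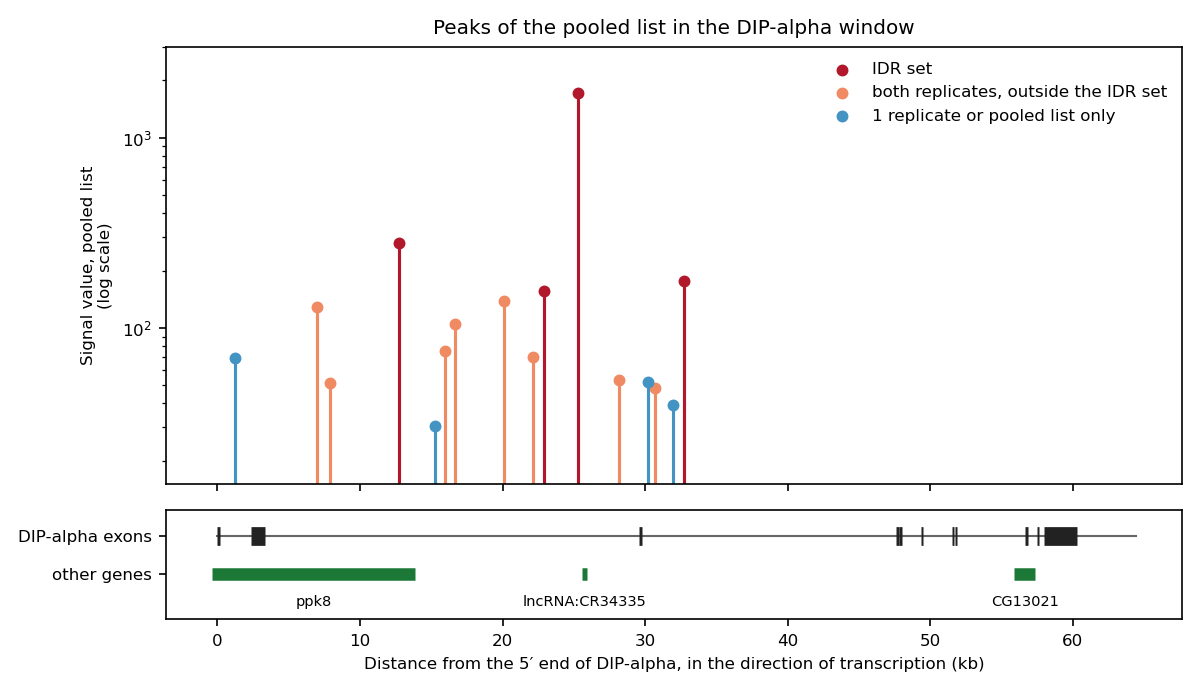
Signal value of the 16 pooled peaks in the DIP-alpha window (y axis, log scale) against distance from its 5′ end in the direction of transcription (x axis, kb), coloured as IDR set, both replicates outside it, or 1 replicate or pooled list only. The lower panel draws the DIP-alpha exons and 3 of the genes that overlap it, and the tallest peak, 1711 at 25315 bp, stands beside lncRNA:CR34335.

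The remaining DIP genes were nearly bare. DIP-iota (FBgn0031837, 2L) had no peak in replicate 1 and 2 in replicate 2, one in intron 1 (2L, 6619798 to 6620173, rank 11948 in replicate 2 and 16461 in the pooled list) and one 367 bp upstream of its TSS (rank 26486). DIP-gamma, DIP-delta, DIP-epsilon, DIP-zeta, DIP-eta and DIP-theta had no summit of any list in the window. Thus 1 of 9 DIP genes had an IDR summit and 7 had none of any kind. Of the 21 dpr genes, 5 had an IDR summit and 13 had none of any kind. Over all protein-coding genes the shares were 41.8% and 30.3%. The IDR peaks of dpr6, dpr14 and dpr19 were nearest to the TSS of another gene, and the 2 families were not compared by a test.

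DIP-beta (FBgn0259245, X, 21422115 to 21457738, − strand), the gene placed downstream of Bsh in lamina L4 neurons, had no summit in the IDR, pooled, replicate 1 or replicate 2 list. The nearest pooled summit was 81966 bp from its TSS, at the promoter of slgA beyond the 3′ end, with rank 8247. On the 5′ side the nearest was 134533 bp from the gene, with rank 14300, and neither was in the IDR set. The replicates alone came closer, with summits 26538 bp (replicate 1) and 26301 bp (replicate 2) upstream of the TSS. The gene lay in a stretch of 96068 bp free of summits. Its window held 45 TAATTG sites on either strand, 1.14 per kb, and long windows had a median of 1.13 per kb. With no summit in the window, none of the sites could lie within 50 bp of one. The embryos were aged 10 to 12 h, and the lamina neurons in which the link is known form later in development. Whether age bears on the missing peak was not tested.

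Among the dpr genes, dpr6 and dpr10, which encode the ligands of DIP-alpha, are neighbours on 3L with 8093 bp between them. The gene dpr6 (FBgn0040823, 3L, 9974651 to 10139360, + strand), the longest member at 164710 bp, had no summit inside its span. Its IDR peak (9972643 to 9972753) ranked 6619 in replicate 1 and 9033 in replicate 2, with a pooled signal value of 159, and lay 1971 bp upstream of dpr6 and 76 bp from the TSS of CG42455. Nearer to dpr6, 205 bp upstream of its TSS, a peak outside the IDR set (9974258 to 9974633) ranked 9482 in replicate 1 and 14795 in replicate 2. At dpr10 (FBgn0052057) the one summit was 2 bp from the TSS, ranked 20868 in replicate 2 and was absent from replicate 1 and from the pooled list. Between these 2 summits, at the outer ends of both genes, 211659 bp had no summit of the pooled or replicate lists.

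The gene dpr8 (FBgn0052600, X, 14322226 to 14462351, + strand) is a partner of DIP-beta. It had 2 intronic IDR peaks in intron 2 of 9. The stronger (14332338 to 14332550) ranked 4667 in replicate 1 and 5164 in replicate 2, with a pooled signal value of 266. The other (14331583 to 14331769) ranked 6216 and 8685 (signal value 178). They lay 10218 and 9459 bp from the dpr8 TSS, which was also the nearest protein-coding TSS, and the rest of the span of 140126 bp had no summit. The other partners of DIP-beta, dpr9 and dpr21, had none in the window.

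Partners of DIP-epsilon and DIP-zeta held 3 of the 5 promoter loci of the IDR set. Of their 4 partners, dpr14, dpr19 and dpr20 had IDR summits and dpr13 had no summit of any list, and neither DIP had one. These 3 genes span between 3738 and 4583 bp, and each has a close neighbour.

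At dpr14 (FBgn0029974, X, 7903704 to 7908286, − strand) the strongest peak (7908525 to 7908896) ranked 625 in replicate 1 and 747 in replicate 2, with a pooled signal value of 1130. Its summit was 419 bp upstream of the nearest dpr14 TSS and 226 bp from that of spidey, an enzyme gene of lipid metabolism. An outer IDR peak (7909587 to 7909788) ranked 6389 and 4813 (signal value 219), 776 bp from the spidey TSS. A weaker peak at the promoter of bys, beyond the 3′ end, ranked 11043 and 12680. All of the dpr14 peaks were therefore nearer to another gene's TSS than to its own.

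At dpr19 (FBgn0032233, 2L, 10376168 to 10379905, + strand), the shortest member, the IDR peak (10375746 to 10376156) ranked 1536 in replicate 1 and 1050 in replicate 2, with a pooled signal value of 746. The summit was 267 bp upstream of the dpr19 TSS and 144 bp from that of CG33303. A further pooled summit of this locus, outside the IDR set, lay 59 bp from the dpr19 TSS, and one of replicate 1 lay 65 bp from it. Both genes share this promoter region. A weak peak at the neighbour gny ranked 25058 in replicate 1 and 27175 in replicate 2.

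At dpr20 (FBgn0035170, 3L, 852720 to 857248, − strand) there were 2 IDR peaks of nearly equal strength. The peak upstream (857685 to 857982) ranked 2646 in replicate 1 and 1587 in replicate 2, with a pooled signal value of 536. Its summit was 549 bp from the dpr20 TSS, the nearest of any protein-coding gene. The peak beyond the 3′ end (851095 to 851386) ranked 2337 and 1884 (signal value 534), 112 bp from the TSS of Dci, a gene of fatty acid oxidation. A weaker peak in intron 1 ranked 11118 and 14970.

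The last members with a peak in both replicates had none in the IDR set. For dpr18 (FBgn0030723, X) the strongest (16072095 to 16072470), 3′ of the gene and in an intron near Nipsnap, ranked 8253 in replicate 1 and 17068 in replicate 2, and had the highest rank ratio of the 28 loci. The dpr18 intron 5 peak (16068227 to 16068602) ranked 15415 and 27063, and the peak 657 bp upstream, 183 bp from the TSS of CG12395, ranked 19904 and 17521. At dpr3 (FBgn0053516, 2L, 2110202 to 2110577) the peak 512 bp upstream of the TSS ranked 29721 in replicate 1 and 25981 in replicate 2, and the replicate summits were 283 bp apart. These ranks lie near the end of lists of 30000 peaks.

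Peaks at the members' own promoters were few. An IDR summit lay within 500 bp of an own TSS at 2 members, dpr14 and dpr19, against 23.5% of all protein-coding genes. A pooled summit did so at 3, with dpr6 added, against 46.4%. Within the span itself, 2 members had an IDR summit (all genes, 15.6%), DIP-alpha and dpr8, and 5 had a pooled summit (all genes, 31.5%), with DIP-iota, dpr18 and dpr20 added. Weak loci of replicate 2 only had summits within 500 bp of the own TSS of DIP-iota, dpr10, dpr18, dpr19 and dpr20, with ranks from 20868 to 26486.

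Stretches without a summit were long around most members. The distance between the nearest summits of the pooled and replicate lists on either side of a gene's 5′ end was a median 95.2 kb for the 30 members, 5.08 kb for all protein-coding genes and 2.58 kb for those with long windows. For the 20 it ran from 50.5 to 1376 kb with a median of 99.1 kb. A window without a summit sets a lower limit to its stretch, so like was compared with like: the 4230 protein-coding genes that also had no summit had a median of 51.4 kb, and the 148 of these with long windows had 120 kb. Over all members 24 had a stretch of at least 50 kb, a limit set after the values were seen, against 18.1% of all genes. Among genes with long windows, 50 kb fell between the 70th percentile (47668 bp) and the 71st (51050 bp). The 24 include the 20 without a summit, whose empty windows set part of the length. The longest stretch belonged to dpr21, a partner of DIP-beta, at 1376241 bp. Repeats masked 27.2% of the dpr21 window, and the next summit-free stretch on the same arm, 2848383 bp, held DIP-lambda, which is not a member. After dpr21 came dpr13 at 223812 bp, dpr6 and dpr10, which share theirs, and dpr9 at 182218 bp. From a gene's own TSS the nearest pooled summit was a median 14780.5 bp away for members and 821 bp for all genes. In the 50 kb on each side of the gene, members had a median of 8 pooled summits, and all genes 25. The median was 3.5 for the 20 without a peak, 15 for all genes without one and 8.5 for those among them with long windows.

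**Figure D5:**
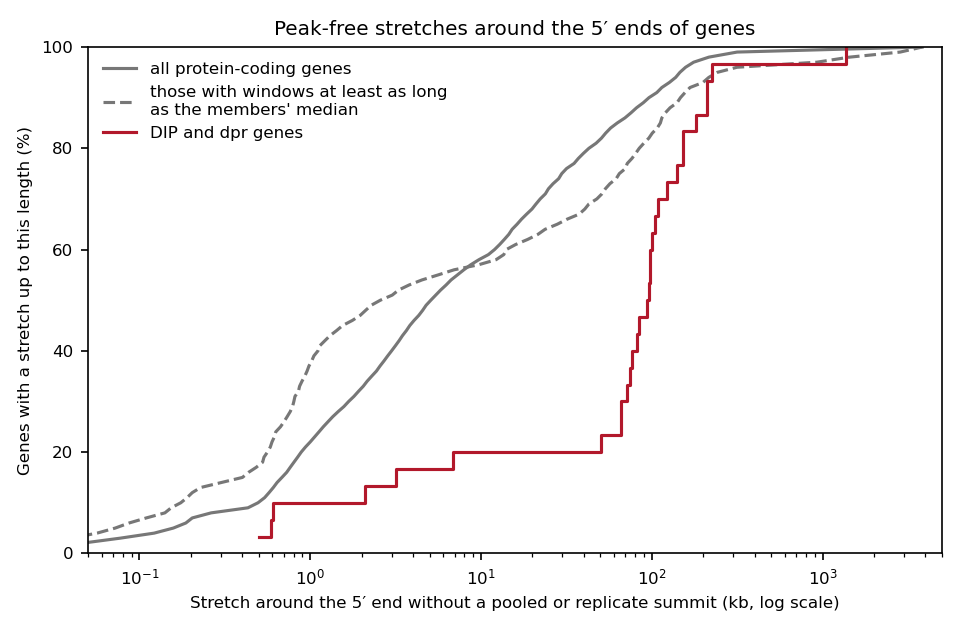
Cumulative share of genes (y axis, %) by the length of the stretch around the 5′ end with no pooled or replicate summit (x axis, kb, log scale), for the 30 DIP and dpr genes (red steps), all protein-coding genes (solid grey) and those with windows at least as long as the members' median (dashed grey). The red line rises steeply past 50.5 kb, with medians of 95.2, 5.08 and 2.58 kb for the 3 sets.

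Some peaks stood just outside the windows. An IDR peak ranked 957 in the pooled list, with a signal value of 911, lay 4918 bp beyond the 3′ end of DIP-delta, and the DIP-delta TSS, 11158 bp away, was the nearest of any protein-coding gene. Another, ranked 1162, lay 9945 bp beyond the 3′ end of dpr17, and one ranked 6121 lay 3220 bp upstream of dpr2, in an intron near Tmem214. With windows of 10 kb either side, 10 members had an IDR summit, against 70.5% of all genes.

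Some empty members were neighbours. DIP-eta and DIP-theta, 8344 bp apart on 2L, lay in the same stretch of 153130 bp, and dpr5 and dpr4, 27531 bp apart on 3R, in one of 98202 bp. The empty neighbours dpr17 and dpr15, 27412 bp apart, lay in separate stretches, with 3 pooled summits and 1 IDR summit between them. By chromosome, none of the 8 members on 3R, the 4 on 2R or the 1 on chromosome 4 had a summit of any list. Over all chromosomes 30.3% of protein-coding genes had none. Their shares on 3R, 2R and 4 were not computed, so these counts do not show a difference between arms. On X an IDR summit lay in 3 of 5 members, against 44.2% of X genes, and off X in 3 of 25, against 41.4% of the other genes.

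Known pairs were set side by side. DIP-alpha and dpr6 both had IDR summits, as did 41.8% of all genes. The strongest of DIP-alpha lay 224 bp from the TSS of lncRNA:CR34335, and that of dpr6 lay 76 bp from the TSS of CG42455. The other partner, dpr10, had only the replicate 2 peak, with rank 20868. Whether partners share peaks more often than other genes was not tested. DIP-gamma and its 4 partners, dpr11, dpr15, dpr16 and dpr17, had no summit of any list, and neither did DIP-delta and dpr12. For DIP-eta, DIP-theta and DIP-iota, 1 of the 5 partners, dpr3, had a peak, and dpr1, dpr2, dpr4 and dpr5 had none. The gene dpr7, for which no partner was listed, had none either, and dpr18, likewise without a listed partner, had peaks in both replicates.

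Base composition and repeats were similar in members with and without a peak. GC content of the windows had a median of 41.5% in the 10 members with a summit and 41.8% in the 20 without, and was 43.9% over all protein-coding genes and 41.5% in long windows. Bases masked as repeats were a median 16.4% and 16.8% of the window, against 11.6% over all genes and 18.0% in long windows. Their part in the counts of peaks was not tested.

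Homeodomain sites had a like density in members with and without a peak. TAATTG, counted on both strands, had a median of 1.15 per kb in members with a summit, 1.11 in those without, 0.846 over all genes and 1.13 in long windows. Of the 1433 such sites in members' windows, 9 lay within 50 bp of a summit of any list, 4 of them in DIP-alpha, 3 in dpr18 and 1 each in dpr14 and dpr20. The 20 members without a summit held 825 of the sites.

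At the summits themselves, within 50 bp, TAATTG was found at 3 of the 12 IDR loci (25%, exact binomial 95% interval 5.49 to 57.2) and at 5 of the 28 loci in both replicates (17.9%, 6.06 to 36.9). The shares were 10.9% of all IDR peaks and 9.56% of all pooled peaks with both replicates, which lie inside those intervals. In windows of the same width 500 bp aside, TAATTG was at 0 of the 12 IDR loci and 4 of the 28 loci (14.3%). There it was at 9.64% of all IDR peaks and 9.83% of all pooled peaks with both replicates. The shorter TAAT was at 11 of 12 IDR loci (91.7%), where all IDR peaks had 80.2%, and in windows of the same width 500 bp aside it was at 9 of 12. TAATTA, which like TAATTG contains TAAT, was at 1 of 28 loci, at 3 of 28 in the windows 500 bp aside, and at 8.16% of all pooled peaks with both replicates. GAGAG was at 0 of the 28 and at 11.3% of those pooled peaks. CATCGATG or TATCGATA was at 0 of the 28 and at 1.24% of the pooled peaks, and CACGTG at 1 of the 28 and at 0.912%. A run of 8 A or 8 T, searched after the sequences had been read, was at 4 of 12 IDR loci and, 500 bp aside, at 3 of 12, where all IDR peaks had 8.24% and 6.08%. Over the 28 loci the run was at 4, both at the summit and 500 bp aside, and at 2 within 25 bp of the summit. Median GC content at the summit was 30.7% at the 28 loci, as over all IDR peaks. A match describes the letters in the window and does not show a bound site.

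A further 19 genes, chosen for their related roles and including DIP-kappa and DIP-lambda from outside the members, were counted in the same way. An IDR summit lay in the windows of 13, a shared peak in those of 14, and no summit of any list in those of 5, namely DIP-kappa, DIP-lambda, beat-Ia, klg and nrm. The shares in long windows given above were 66.7%, 75.6% and 20.0%, and 41.8%, 59.7% and 30.3% of all genes. Among the 13, Ten-a, a teneurin, had 17 IDR summits in a window of 295517 bp. The adhesion gene Fas3 had 9 in 77340 bp and the repeat protein gene caps 9 in 54951 bp. These counts are not adjusted for length, and the windows of all protein-coding genes held 6.56 IDR summits per 100 kb. The list was drawn up with results of these data known, and the difference from the DIP and dpr genes was not tested.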

How the data were processed

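Peaks came from anti-GFP ChIP-seq of 2 replicates of whole bsh-GFP embryos. The embryo age was taken from the source name, because the age field of the labels is not usable. The labels' description gives an anti-GFP antibody while the antibody field gives bsh, and the description was followed. Per the deposited text files, the authors used assembly dm6, called peaks per replicate and after pooling, each time against 1 control file, and drew the IDR set from those lists. Which aligner, caller, settings and IDR threshold they used is not given in the sources used here. A peak's deposited signal value is a score of the authors' caller, and it was ranked only within a list. The deposited −log10 q-value reaches a ceiling (4.33 in the pooled list) at 10691 pooled peaks, so it was used only to rank the strongest peak of members below it. Summit positions are the start plus the offset in the deposited lists. All lists but the IDR set end at 30000 peaks, so their length is a limit and the weakest peaks depend on it. Depth per sample is unknown.

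Gene spans were those of Ensembl release 115, and sequence came from the RefSeq genome of release 6, whose chromosome lengths held all peaks and genes. Coordinates are 1-based. Loci merge peaks of the pooled and replicate lists that overlap by at least 1 bp. A summit in more than 1 class was counted as promoter before UTR, then exon, intron and intergenic. Motif searches covered both strands and 50 bp either side of a summit. Analyses used Python 3.11.15, numpy 2.4.6, pandas 2.3.3, scipy 1.17.1 and matplotlib 3.10.9, and the counting steps were tested on simulated data. With 1 group and 2 replicates there was no comparison to test.

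The members, the related genes, the pairs and the motifs were chosen with earlier results of these data known. The rule for full description took members with an IDR summit, the 8 members next in the worse of both replicate ranks among peaks in both replicates (there were only dpr3 and dpr18), DIP-beta, and the longest and shortest member. DIP-iota, dpr10, the peaks just outside the windows, the genes with the longest empty stretches and the related genes named singly were picked after their values were seen, as were the limits of 50 kb for a stretch and 100 kb for a long span. Alternatives covered the window, the peak list, the overlap, the promoter and motif widths, and each replicate left out.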

Additional observations from a re-analysis of the deposited data

How the results depend on the processing

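Of 30 alternative values, 7 moved by more than 1.5 times for a count or past the interval of the reported value for a density or share, and 23 stayed within those limits. Members with an IDR summit were 2 with the gene span alone (15.6% of all genes), 10 with 10 kb either side (70.5%), 3 within 1 kb of an own TSS (27.6%) and 2 with the strongest 1000 IDR peaks (9.54%), as narrower or wider windows and fewer peaks make them. Shared peaks lay in 4 members with the span alone (25.4%). The density of IDR summits was 0.156 per 100 kb with the strongest 1000 IDR peaks (all genes, 0.865), and 0.517 with the span alone, inside the interval. Members with an IDR summit within 100 bp of an own TSS numbered 0 (all genes, 7.16%). In each of these settings the members' share stayed below that of all genes. With as many of the strongest peaks of a single replicate as there are IDR peaks, 5 to 6 members had a summit, at 0.781 to 0.938 per 100 kb, and dpr6 was lost without replicate 1. Without DIP-alpha, a setting added after the data were seen, the density was 0.660. No paired analysis was possible because there is only 1 group. The unknown depth, the limit of 30000 peaks and the mixture of cell types in whole embryos mean that, where a peak is missing, no binding and binding below detection cannot be told apart.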
